A study of Saccharomyces cerevisiae with 6 samples.

Results

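This account concerns 36 genes of glycolysis, ethanol fermentation and gluconeogenesis in budding yeast (Saccharomyces cerevisiae), and the binding of the transcription factors Pdr1 and Pdr3 upstream of them. The genes were chosen by name from the pathway, and all 36 were found among the 6002 protein-coding genes of the nuclear chromosomes in the RefSeq table of assembly R64. For each gene, the peaks were taken whose summit lay in the 1000 bp before its annotated start. Binding had been profiled by CUT&RUN, in which an antibody brings a nuclease to the protein of interest in permeabilised nuclei and the released DNA is sequenced. The series has 6 libraries from cells grown in YPD, a rich medium with glucose. For Pdr1, strain YRP10 supplied 2 libraries with an anti-c-Myc antibody and 2 with control rabbit IgG. For Pdr3, strain Pdr3_3xmyc supplied 1 of each kind. No source used here gives the tag or genotype of YRP10, or further alleles of either strain. No list from an IgG library was used, so the values below have no control antibody beside them.

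Glycolysis splits glucose into pyruvate, and on glucose yeast turns most of that pyruvate into ethanol through pyruvate decarboxylase and alcohol dehydrogenase. A side branch makes acetate and acetyl-CoA, and gluconeogenesis runs the pathway backwards on non-sugar carbon through a few enzymes of its own. Many steps have several isoenzymes, of which one dominates on glucose, and the promoters of the main forms are among the most active in the cell, driven by Rap1, Gcr1 and Gcr2. Pdr1 and Pdr3 are zinc-cluster factors known for activating pleiotropic drug resistance (PDR) genes, such as that of the drug exporter PDR5.

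The peak lists of the 3 c-Myc libraries held 792 peaks for Pdr1 replicate 1, 485 for Pdr1 replicate 2 and 7 for Pdr3. Each peak carries a fold enrichment and a −log10 q-value from the authors' peak caller, with no read counts, so depth is unknown and a peak has no error of its own. What the enrichment is relative to is not stated. Fold enrichments therefore serve to rank peaks within a list, and rank 1 is the strongest. The PDR5 peak ranked 26 in replicate 1, 3 in replicate 2 and 3 in the Pdr3 list. Nothing in the labels says whether the Pdr1 replicates came from separate cultures.

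Peaks of Pdr1 lay upstream of most of the 36 genes. A summit stood upstream of 24 genes in replicate 1 (66.7%), against 15.5% of all protein-coding genes, and of 20 genes in replicate 2 (55.6%), against 10.2%. In 18 of the 36 genes (50.0%) both replicates had one, against 8.95% of all genes. A further 8 genes had a summit in 1 replicate and 10 had none. No Pdr3 summit lay upstream of any of the 36, where 0.167% of all genes, 10 in number, had one. The count for both replicates depended on the window and on list length: with 500 bp upstream it was 10 members (27.8%, against 5.28% of all genes), and with the strongest 485 peaks of each replicate it was 9 (25%, against 6.06%).

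These genes also have more room upstream. The space to the neighbouring protein-coding gene had a median of 714.5 bp for the 36 genes and 449 bp for all genes. Among genes with at least 500 bp of such space, 16.4% of all genes and 14 of 24 members (58.3%) had a summit in both replicates. Below 500 bp the figures were 3.15% and 4 of 12 (33.3%; GLK1, PGI1, ALD6 and PYC1), and of these 4 only PYC1 kept a summit in both replicates when the window ended at the neighbouring gene. No summit lay inside the annotated body of any of the 36 genes, in either replicate, where 2.20% of all genes had one in replicate 1 and 1.17% in replicate 2.

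**Figure D1:**
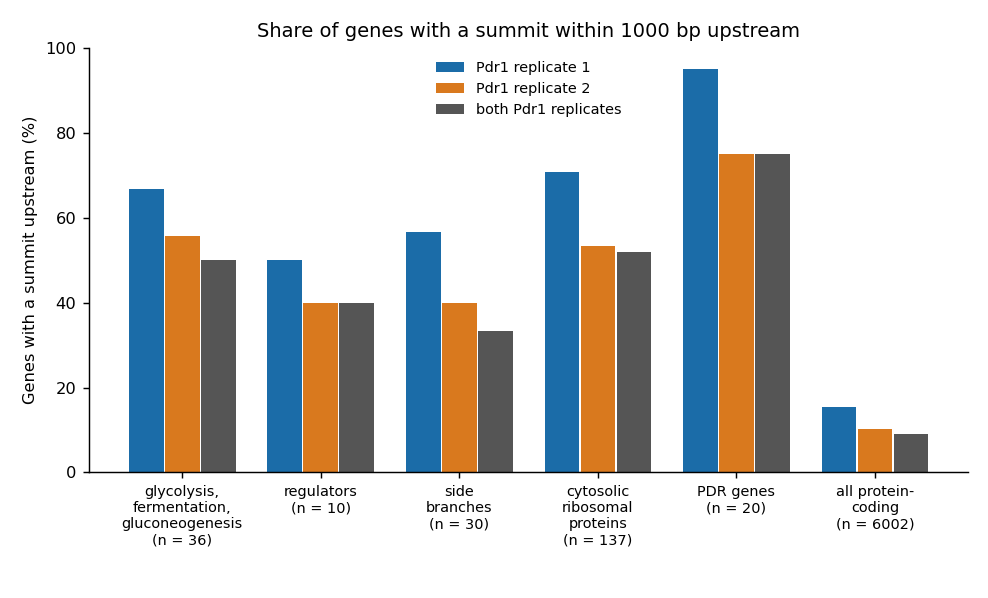
Bars give the percentage of genes in each set (x axis, with the number of genes) that had a peak summit in the 1000 bp before the start, in Pdr1 replicate 1, in replicate 2 and in both. The 36 genes stand at 66.7, 55.6 and 50.0%, all protein-coding genes at 15.5, 10.2 and 8.95%.

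Glucose enters the pathway through the hexokinases HXK1 and HXK2, the glucokinase GLK1 and its paralog EMI2. HXK2 (YGL253W) encodes the main hexokinase on glucose. Its peak had a fold enrichment of 9.41 in replicate 1 (rank 63 of 792; chromosome VII, 23306 to 23764) and 4.86 in replicate 2 (rank 242 of 485; 23447 to 23745). Both lists placed the summit at base 23522, 413 bp before the start, the only one of the 18 shared members with the same summit base in both. GLK1 (YCL040W) had peaks of 3.25-fold (rank 680) and 3.83-fold (rank 384), in the lower part of each list. Its summits also lay upstream of the divergent gene PDI1, which encodes protein disulfide isomerase, and the replicate 1 summit fell inside the annotated gene YCL042W. HXK1 and EMI2 had peaks in replicate 1 alone. HXK1 had 1 peak of 3.39-fold (rank 659). EMI2 had 2, of 4.28-fold and 3.49-fold, which also lay upstream of its divergent neighbour GRH1.

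All 5 genes of upper glycolysis had a summit in both replicates. PFK2 (YMR205C), for the beta subunit of phosphofructokinase, had the strongest, at 6.86-fold in replicate 1 (rank 175; chromosome XIII, 674988 to 675568) and 7.43-fold in replicate 2 (rank 43; 674997 to 675422). Its summits, 130 bp apart, were shared with the divergent gene YMR206W. PFK1 (YGR240C), for the alpha subunit, had a pair of small peaks in replicate 1, of 3.19-fold and 2.65-fold, with summits 522 and 839 bp before the start. Replicate 2 listed 1 peak there, of 6.16-fold (rank 100), whose summit was 855 bp from the start and 16 bp from the farther of the replicate 1 summits. That summit fell inside the annotated gene YGR240C-A. Both subunit genes of this enzyme thus had peaks, in 1 interval at PFK2 and in separate intervals at PFK1.

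Triose phosphate isomerase, the product of TPI1 (YDR050C), had peaks of 6.09-fold (rank 241) and 4.14-fold (rank 334). The summits were 252 and 240 bp before the start, and by −log10 q the peaks stood higher, at ranks 143 and 125. PGI1, for phosphoglucose isomerase, had peaks of 3.14-fold (rank 702) and 4.20-fold (rank 320), and the replicate 1 summit fell inside the annotated small gene YBR196C-A. FBA1, for aldolase, had one of the weakest peaks of replicate 1, at 2.40-fold (rank 788 of 792), and a 4.22-fold peak of rank 313 in replicate 2.

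**Figure D2:**
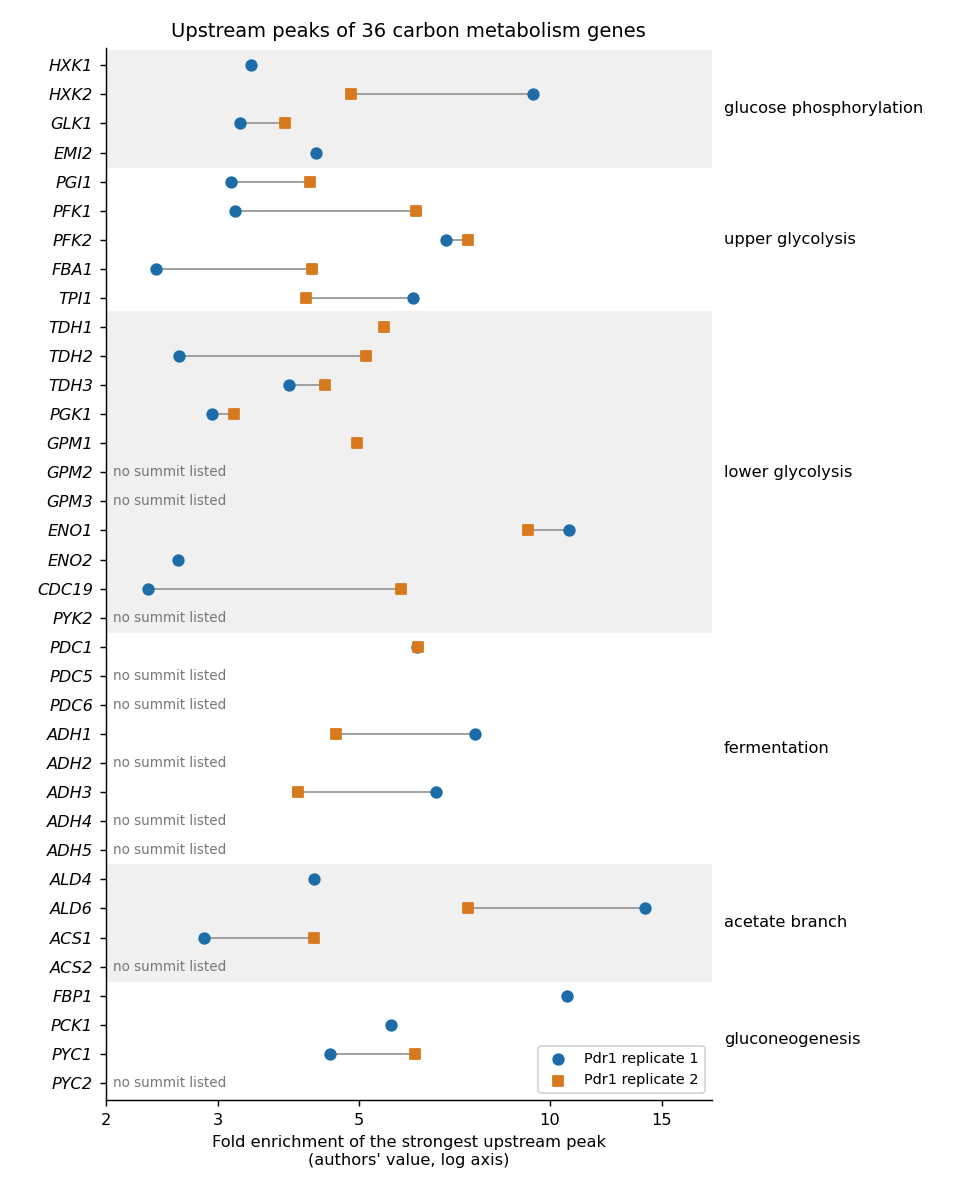
Fold enrichment of the strongest peak upstream of each of the 36 genes (x axis, log scale, authors' values), in pathway order, with circles for Pdr1 replicate 1, squares for replicate 2 and a line joining the 2 values of a gene. ALD6, ENO1 and FBP1 reach above 10 in replicate 1, and 10 genes have no summit in either list.

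Lower glycolysis has 11 genes here, of which 5 had a summit in both replicates, 3 in 1 replicate and 3 in none. The enolase genes had the clearest contrast between isoenzymes. ENO1 (YGR254W) had a 10.7-fold peak in replicate 1 (rank 43; chromosome VII, 999947 to 1000881) and a 9.23-fold peak in replicate 2 (rank 24; 1000034 to 1000792). At 935 and 759 bp these were the widest member peaks of their lists, where the median peak was 257 and 230 bp wide, and the summits lay 651 and 536 bp before the start. ENO2, the form that dominates on glucose, had only a 2.59-fold peak in replicate 1 (rank 774), with its summit inside the annotated gene YHR173C, and none in replicate 2. ENO1 thus had the stronger peak of the pair in replicate 1, and in replicate 2 ENO1 alone had a listed peak. The space upstream of ENO1 is 1786 bp long and that upstream of ENO2 173 bp.

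The TDH genes encode glyceraldehyde-3-phosphate dehydrogenase, with TDH3 the main form. TDH3 (YGR192C) had peaks of 3.89-fold (rank 582; chromosome VII, 883966 to 884397) and 4.42-fold (rank 288; 883950 to 884376). TDH2 had peaks of 2.61-fold (rank 771) and 5.13-fold (rank 208). TDH1 had none in replicate 1 and a 5.48-fold peak (rank 159), 92 bp wide, in replicate 2, with its summit inside the annotated gene YJL052C-A. The order of the 3 isoenzymes therefore differed between the lists: TDH3 was highest of those listed in replicate 1 and lowest of the 3 in replicate 2.

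PGK1 (YCR012W), for phosphoglycerate kinase, had weak peaks in both lists, of 2.94-fold (rank 733) and 3.18-fold (rank 437). Its summits at bases 137376 and 137391 of chromosome III also lay upstream of the divergent gene ADP1, which encodes a putative ABC transporter. CDC19 (YAL038W), for the main pyruvate kinase, stood far apart in the 2 lists: its replicate 1 peak of 2.33-fold ranked 789 of 792 and its replicate 2 peak of 5.82-fold ranked 124 of 485. Both peaks were broad, at 655 and 412 bp. GPM1, for the main phosphoglycerate mutase, had a 4.98-fold peak of 108 bp in replicate 2 alone (rank 229). No summit lay upstream of its homologues GPM2 and GPM3, nor upstream of PYK2, the minor pyruvate kinase gene.

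Fermentation showed the same few genes in both replicates: PDC1, ADH1 and ADH3 had a summit in each, and the other 5 genes had none in either. PDC1 (YLR044C), for the main pyruvate decarboxylase, had peaks of 6.18-fold in replicate 1 (rank 230; chromosome XII, 234263 to 234862) and 6.20-fold in replicate 2 (rank 98; 234285 to 234822). The summits were 13 bp apart and about as far from the start, at 602 and 589 bp. PDC5 and PDC6, the genes of the minor forms, had no summit in the window.

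ADH1 (YOL086C), for the alcohol dehydrogenase that makes ethanol on glucose, had peaks of 7.62-fold (rank 132; chromosome XV, 160648 to 161395) and 4.61-fold (rank 265; 160729 to 161382). They spanned 748 and 654 bp, with summits 732 and 688 bp before the start, toward the far end of each peak. By −log10 q, which was 70.3 in replicate 1, that peak ranked 48. ADH3, for the mitochondrial enzyme, was the only member with 2 separate peaks in both lists. In replicate 1 they were 6.62-fold at 189 bp from the start and 6.56-fold at 942 bp, and in replicate 2 they were 3.90-fold at 175 bp and 4.02-fold at 816 bp. ADH2, for the enzyme that consumes ethanol and is repressed by glucose, and ADH4 and ADH5 had no summit.

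**Figure D3:**
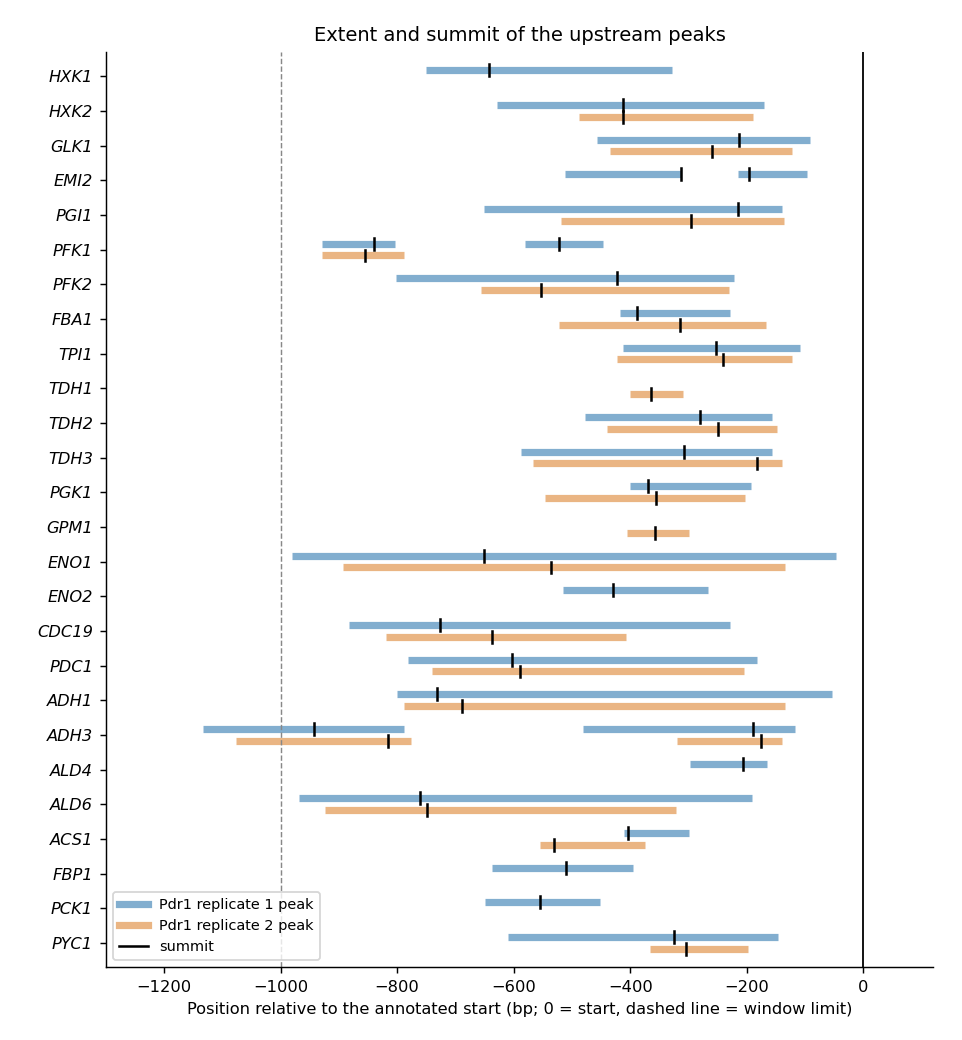
Extent (bars) and summit (black ticks) of every peak with a summit in the window of the 26 genes that had one, by distance from the annotated start in bp. Blue bars are Pdr1 replicate 1 and orange bars replicate 2. The peaks of ENO1, ADH1 and ALD6 each extend over more than 600 bp in both lists, and ADH3 has a pair of separate peaks in each.

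The acetate branch held the strongest member peak of replicate 1, and in replicate 2 only ENO1 and ALD6 stood above PFK2. ALD6 (YPL061W), for the cytosolic acetaldehyde dehydrogenase, had a 14.1-fold peak in replicate 1 (rank 18; chromosome XVI, 431619 to 432397) and a 7.45-fold peak in replicate 2 (rank 42; 431664 to 432267). Its −log10 q of 140 and 52.0 was the highest of any member in each list. The summits were 12 bp apart, 760 and 748 bp before the start. They also lay upstream of the annotated gene YPL062W, which stands between them and ALD6, so ALD6 drops from the count where the window ends at the neighbouring gene. ALD4, for the mitochondrial enzyme, had 1 peak of 4.25-fold in replicate 1 (rank 512).

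The acetyl-CoA synthetase genes went against the order of the main forms. ACS2, the form needed on glucose, had no summit, and ACS1, the glucose-repressed form, had peaks of 2.85-fold (rank 748) and 4.25-fold (rank 308). Those summits, 126 bp apart, also lay upstream of the divergent gene FLC2.

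The gluconeogenic genes were found mainly in replicate 1. FBP1 (YLR377C), for fructose-1,6-bisphosphatase, had a 10.6-fold peak there (rank 44; chromosome XII, 875187 to 875429), and PCK1, for phosphoenolpyruvate carboxykinase, a 5.62-fold peak (rank 296; chromosome XI, 630503 to 630700). Neither had a summit in replicate 2, although the FBP1 peak was the third strongest of all member peaks in replicate 1. Both genes are known to be repressed by glucose. PYC1, for pyruvate carboxylase, had peaks in both lists, of 4.50-fold (rank 462) and 6.12-fold (rank 103), with summits 21 bp apart. Its isoenzyme gene PYC2 had none.

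By isoenzyme, 6 of the 9 genes taken as the main form on glucose had a summit in both replicates (HXK2, TDH3, CDC19, PDC1, ADH1 and ALD6), and so did 5 of the 17 other forms (GLK1, TDH2, ENO1, ADH3 and ACS1). In neither replicate were 1 main form (ACS2) and 8 other forms. The share over all protein-coding genes was 8.95%. These counts depended on the window. With 500 bp upstream, CDC19, PDC1, ADH1 and ALD6 of the main forms and ENO1 and ACS1 of the other forms dropped out. That left HXK2 and TDH3 against GLK1, TDH2 and ADH3. The difference between the forms was not tested. How the authors placed reads that match near-identical copies is not stated, and these families include such copies.

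The members' peaks were spread over the whole range of each list. In replicate 1, ALD6, ENO1 and FBP1 were among the strongest 50 peaks, and 10 of the 24 genes had their strongest peak beyond 75% of the list, counted from the top. In replicate 2, ENO1, ALD6 and PFK2 were among the strongest 50, and 2 of the 20 genes lay beyond 75% of the list. Over all genes with a summit, 214 of 931 lay beyond 75% in replicate 1 and 134 of 613 in replicate 2. A peak among the strongest 50 lay upstream of 70 and 66 of them. The median position of a gene's strongest peak, as a percentage of the list from the top, was 64.3% in replicate 1 and 48.6% in replicate 2, beside 47.0% and 47.6% for all genes with a summit. The order turned with a −log10 q of 10 or more, where the medians were 40.2% over 17 members in replicate 1 and 60.4% over 19 in replicate 2, beside 48.3% and 47.5% for all genes, so no direction is read from them. Of 20 known PDR genes, the 19 with a summit in replicate 1 had a median of 4.29% and the 15 in replicate 2 a median of 3.09%. Of 137 cytosolic ribosomal protein genes, the 97 and 73 with a summit had medians of 55.3% and 53.0%. A summit in both replicates stood upstream of 51.8% of the 137. These differences between sets were not tested, since the sets were chosen with earlier results of these lists known.

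Agreement between replicates was examined over the 18 genes found in both. Spearman's rho of the 2 list positions was 0.42 over these 18 genes and 0.33 over all 537 genes found in both, as a description across promoters of the same 2 libraries. In every one of the 18, a replicate 1 peak overlapped a replicate 2 peak, as in 531 of the 537. The strongest summits lay a median of 60 bp apart (30 bp over all 537) and within 100 bp of each other in 12 of 18 genes (66.7%, against 80.3%). The widest gap, 627 bp at ADH3, arose where the replicates ranked different peaks of the same window first. The next, 333 bp at PFK1, arose where replicate 2 listed no peak at the place of the stronger replicate 1 peak.

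**Figure D4:**
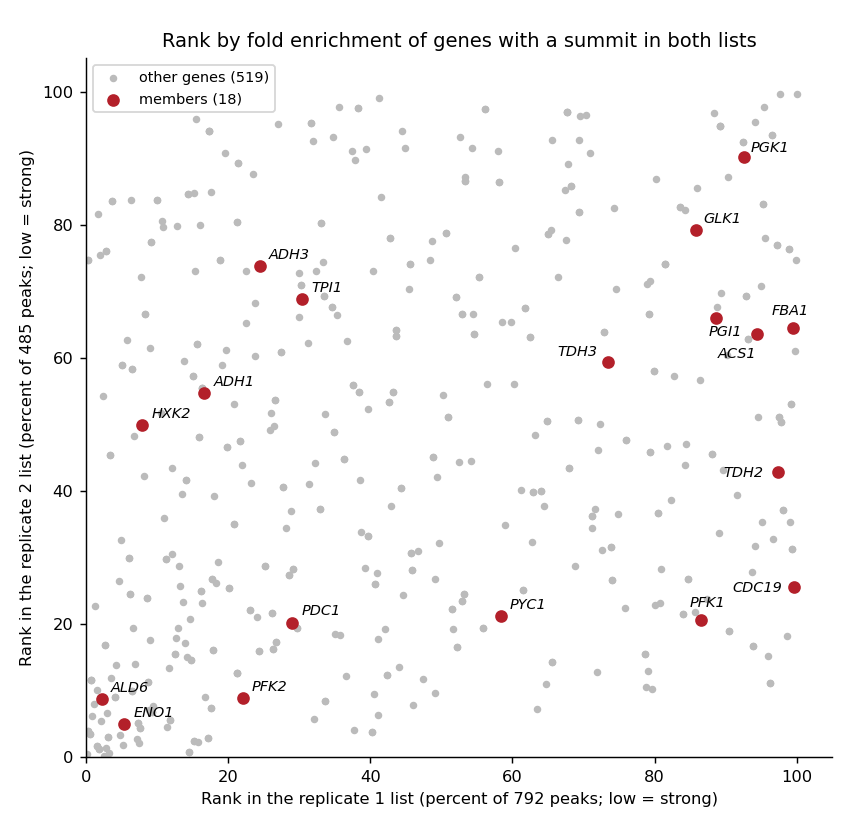
Position of each gene's strongest upstream peak in the replicate 1 list (x axis) and in the replicate 2 list (y axis), in percent of the list with strong peaks near 0, for the genes with a summit in both. ALD6 and ENO1 lie in the strong corner of both lists, HXK2 is higher in replicate 1, and CDC19 and PFK1 are higher in replicate 2.

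The distance of the strongest summit from the start had a median of 408.5 bp in replicate 1 and 388.5 bp in replicate 2, near the 382 and 421 bp of all genes. Ribosomal protein genes had their summits closer, at 266 and 303 bp. Member peaks had a median width of 366 and 329 bp, against 274 and 229 bp for all genes with a summit. The summit was shared with another gene's window for 6 of the 24 genes in replicate 1 and 6 of the 20 in replicate 2. The share of genes with a shared summit was not counted over all genes. There, 931 genes had 704 upstream peaks in replicate 1 and 613 genes had 434 in replicate 2, so some peaks were shared. Of the members' summits, 24 of 27 in replicate 1 (88.9%) and 19 of 21 in replicate 2 (90.5%) lay outside protein-coding genes, beside 85.6% and 88.0% of all peaks. The figures for all peaks include peaks that lay in no gene's upstream window, so the 2 sets are not alike. Members whose upstream neighbour runs in the same direction had a summit in both replicates in 11 of 22 cases, and those with a divergent neighbour in 7 of 14. The share over all genes, 8.95%, was not split by the direction of the neighbour, so nothing is read from these counts.

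A few peaks fell just outside the window. The summit nearest inside the limit was that of ADH3 at 942 bp. Beyond it, PDC6 had a 2.82-fold replicate 1 peak at 1209 bp and HXK1 a 4.55-fold replicate 1 peak at 1320 bp. PGI1 had a 2.60-fold peak at 1239 bp in replicate 1 and a 4.78-fold peak at 1255 bp in replicate 2. ADH1 had a 5.96-fold replicate 1 peak at 1251 bp, with its summit inside the annotated gene YOL085C. PYK2 had the strong peaks inside its neighbour PUT4, of 21.4-fold and 20.2-fold, with summits 1367 and 1353 bp before its start. The edges of those peaks, though not their summits, reached the PYK2 window.

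Other genes around the pathway were taken from 2 lists. Of 10 regulators, 4 had a summit in both replicates (40.0%, against 8.95% of all protein-coding genes). In replicate 1 alone there was 1 (MIG1, a repressor active on glucose), and 5 had none (GCR2, RAP1, SNF1, CAT8 and RGT1). TYE7 (YOR344C), an activator of glycolytic genes, had the strongest, at 9.71-fold (rank 57) and 11.2-fold (rank 13), with summits 774 and 763 bp before the start. GCR1, the activator named above, had peaks of 8.08-fold (rank 103) and 6.22-fold (rank 94) 112 and 127 bp before the start. HAP4, an activator of respiratory genes, had peaks of 8.05-fold and 5.81-fold, and ADR1, the activator of ADH2, 7.998-fold and 4.41-fold. So the regulator genes GCR1 and TYE7 ranked above most of the glycolytic enzyme genes in both lists.

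Of 30 genes of side branches, 17 had a summit in replicate 1 (56.7%), 12 in replicate 2 (40.0%) and 10 in both (33.3%). Over all protein-coding genes the shares were 15.5%, 10.2% and 8.95%. These 10 included both glycerol-3-phosphate dehydrogenase genes, GPD1 (5.89-fold and 4.12-fold) and GPD2 (2.92-fold and 4.12-fold), and both glycerol phosphatase genes, GPP1 (4.77-fold and 4.13-fold) and GPP2 (6.66-fold and 6.44-fold). The strongest summits of these 4 genes also lay, in both lists, upstream of a neighbour: YDL022C-A at GPD1, MAM3 at GPD2, YIL055C at GPP1 and THO1 at GPP2. PFK27, for a kinase that makes the phosphofructokinase activator fructose 2,6-bisphosphate, had a 15.1-fold peak in replicate 1 (rank 14) and a 3.65-fold peak in replicate 2 (rank 396). The others were TPS2 of trehalose synthesis (4.24-fold and 7.12-fold), the transketolase genes TKL1 (8.10-fold and 3.80-fold) and TKL2 (2.42-fold and 5.54-fold), ALD5 (5.32-fold and 3.50-fold) and MDH2 (6.29-fold and 5.20-fold). The TKL2 summits, 926 bp from its start, also lay upstream of TEF2, a translation elongation factor gene, and the MDH2 summits upstream of TRM13. No Pdr3 summit lay upstream of any gene of either list.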

How the data were processed

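The deposited data used were 1 narrowPeak list for each of the 3 c-Myc libraries. Per the submitters' processing notes, Trimmomatic 0.33, Bowtie2, Picard, deepTools and MACS2 2.1.1 were used and builds R64 and sacCer3 are named. No source used here gives their settings or the use of IgG and spike-in reads. The deposited lists have no header: the fold enrichment, a linear ratio, the −log10 p-value and −log10 q-value per peak, and a score (the −log10 q times 10, rounded down, in 100% of peaks), were read by the format's usual column order. The p-value was not used, and depth is unknown.

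Each summit was assigned to every gene whose upstream window held it, with strand read from the systematic gene name (Python 3.11.15, pandas 2.3.3), and the assignment was tested on simulated peaks. In 96.4% of the genes the annotated length is a multiple of 3, so starts are mostly those of coding regions. Coordinates count from 1. A gene counted for both replicates when each list had a summit in its window. Groups came from sample titles. The named genes are the 36 listed, the 2 lists of other pathway genes with a peak, and genes sharing a summit. Members and lists were chosen with earlier results of these data known, so no test was made over them. The planned promoter sequences and motif search were not run, as no sequence was used here. PYK2's neighbour PUT4 and the comparison sets stand outside the rule.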

Additional observations from a re-analysis of the deposited data

How the results depend on the processing

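Counts were recomputed with a stricter q (a −log10 q of 10 or more), a 500 bp window, a window ended at the nearest gene, any base of a peak in place of its summit, and lists of equal length. Of 31 recomputed counts and medians, 23 stayed close to the reported value, within 1.5 times for counts and within 11.1 percentage points, the SD between the replicates, for medians. This number is no measure of robustness. It includes Pdr3 counts of 0 that most settings could not change, and the counts of each replicate alone. A fall from 18 to 12 genes with the stricter q also counted as close. The other 8 results follow. A 500 bp window lowered the number of genes with a summit from 24 to 15 in replicate 1, from 20 to 12 in replicate 2 and from 18 to 10 in both. Equal numbers of peaks lowered it to 11 in replicate 1 and 9 in both, by removing weak replicate 1 peaks. With the stricter q, the median list position became 40.2% in replicate 1 and 60.4% in replicate 2, and with 500 bp it became 62.0% in replicate 2. The cause of these shifts in position was not tested.

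The count for both replicates was 12 with the stricter q (33.3% of members, against 6.63% of all genes). It was 14 with windows ended at the nearest gene (38.9%, against 7.56%). A reciprocal overlap of 50% left 16, and summits within 100 bp left 14. With 1 replicate left out, only the other list was counted, giving 20 or 24, which could not fall below the count for both. Counting any base of a peak added PYK2 alone. Over single genes, the number of lists with a summit was unchanged in 141 of 180 recomputations, fell in 38 and rose in 1. The unchanged ones include the 10 genes without a summit, for which only counting any base of a peak could have changed the number. The Pdr3 count of 0 could have changed only when any base of a peak was counted, and it was 0 there too. No paired analysis was possible because replicate numbers pair the Pdr1 c-Myc libraries only with IgG libraries, from which no list was used. Without read counts, a peak that 1 replicate lacks cannot be told apart from one below the authors' threshold.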
